A study of Mus musculus with 97 samples.

Results

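At genomic sites that the authors' table names Esrrb_Lost, interphase mouse embryonic stem (ES) cells had a peak of ATAC accessibility at the summit. Around the Oct4/Sox2 motif of these sites they had evenly spaced nucleosomes on both sides. Both features were weaker in mitotic cells. The excess of ATAC cut sites at the summit over the surrounding level was 37.6% as large in mitotic as in interphase cells. The dip between the central and the first flanking nucleosome peak was shallower in mitosis at every MNase concentration. The flanking level minus the dip level was lower in mitosis at all other sets of sites with nucleosome profiles too. On summit-centred profiles a broad central mound of fragments replaced the dip at MNase concentrations 16 and 128, and for total MNase at 0.5 as well. These sites were taken from a deposited table of average profiles, as the entries with the region name Esrrb_Lost and the centre OctSoxMotif or Summit. They make up 26 of the 94 profiles in that table, 12 centred on the Oct4/Sox2 motif and 14 on the summit, and each is deposited as measured and as smoothed by the authors.

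Esrrb is an orphan nuclear receptor that binds DNA at enhancers of ES cells and takes part in maintaining pluripotency. It is known as a mitotic bookmarking factor, one that stays on part of its target sites while chromosomes are condensed and most transcription factors have left. Oct4 and Sox2, the central pluripotency factors, often bind side by side on a composite motif. Where a factor occupies DNA, neighbouring nucleosomes often line up at regular distances from it, which is called a phased array, and an array can fade when the factor leaves. Micrococcal nuclease (MNase) cuts the linker DNA between nucleosomes, so the midpoints of the protected fragments mark nucleosome centres, and light digestion also releases fragments from accessible, easily degraded particles that heavy digestion destroys. Immunoprecipitation of histone H3 after the digestion (MNase-H3) keeps the fragments that carry this histone, while ATAC-seq marks where the Tn5 transposase could insert into open DNA.

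The study measured transcription factor binding, accessibility and nucleosome positions in mitotic and interphase E14tg2a ES cells, labelled Tg2a, a feeder-free mouse line grown in serum with LIF. It holds 97 libraries, of which 18 are MNase, 12 MNase-H3 and 4 ATAC. For MNase and MNase-H3, mitotic cells (label M) had been given nocodazole, a drug that blocks spindle assembly, at 50 ng/ml for 4 to 5 h and were collected by shake-off and filtering. Interphase cells (label I on the profiles, A in the library titles) were untreated, trypsinised and collected alongside. The drug and the collection method differ between the groups together with the cell-cycle stage and cannot be told apart from it. The labels name no arrest step for ATAC. Digestions used MNase at concentrations 0.5, 16 and 128, given without a unit. The labels list 3 MNase libraries, 2 MNase-H3 libraries and 2 ATAC libraries for each state and concentration.

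The table holds 1 profile for each state, concentration and centre, with no values per library. No difference below could therefore be tested or given an error between replicates, and the number of regions and the depth behind a profile are unknown. The left and the right side of each centre give the only internal check. Over the 24 midpoint profiles of these sites, the sides differed in central level by a median of 0.0096 and at most 0.0446 of the flank level. The name Esrrb_Lost is the authors', and the profiles hold no measure of Esrrb binding against which to check it. Levels are given relative to the flank, the mean 800 to 1000 bases from the centre, which is set to 1. The central level is the mean within 50 bases of the centre. The inner trough is the mean 70 to 110 bases away, the first flanking window 160 to 200 bases away, the second trough 260 to 300 and the second flanking window 350 to 400 bases away, all averaged over both sides.

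Flanks were not equal between the states, and levels relative to them remove that difference. On the deposited scale multiplied by 10000, the flank of the motif-centred MNase profiles was 7.32, 5.97 and 1.86 in mitotic cells at concentrations 0.5, 16 and 128, against 5.80, 7.20 and 2.31 in interphase cells. For MNase-H3 it was 4.13, 3.56 and 1.19 in mitotic cells, against 3.64, 3.58 and 1.49 in interphase cells. The mitotic flank was thus higher at the light digestion and lower at the heavy digestion, and the other sets of sites in the table shared this order. At concentration 0.5 the ratio of mitotic to interphase MNase flanks was 1.24 to 1.31 over the 7 combinations of site set and centre, and at 128 it was 0.758 to 0.812.

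The ATAC profiles were summit-centred, the summit being the highest point of a binding peak (the table does not say of which factor). The central level was 21.3 in mitotic cells and 39.9 in interphase cells, on the deposited scale multiplied by 10000. The flank was close in both, at 13.03 in mitotic and 14.8 in interphase cells. Relative to the flank, accessibility at the summit was 1.64 in mitosis and 2.69 in interphase, a log2 ratio of -0.72, with -0.71 on the left and -0.73 on the right. Mitotic cells kept a visible ATAC peak at the same place, with the highest point about 10 bases left of the summit in either state. Its width, measured midway between its top and the flank, was about 230 bases in mitotic and 240 bases in interphase cells, so the peaks differed in height and hardly in width. Away from the summit the mitotic profile stayed lower: 1.44 against 2.22 in interphase cells in the inner trough window, 1.23 against 1.53 in the first flanking window and 1.10 against 1.18 in the second.

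**Figure D1:**
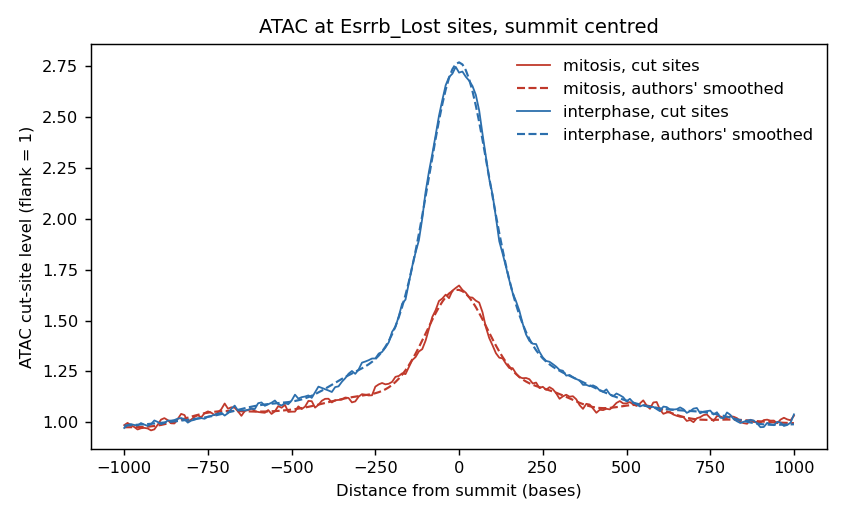
ATAC cut-site level relative to the flank (vertical axis) by distance from the summit in bases (horizontal axis), for mitotic (red) and interphase (blue) cells, 1 pooled profile each; solid lines are running means of the cut sites and dashed lines the authors' smoothed profile. The mitotic peak reached a central level of 1.64 and the interphase peak 2.69, with nearly the same width.

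The other sets with ATAC profiles place these values. The deposited summits named Oct4/Sox2 had a log2 ratio of -0.87 (1.59 in mitosis, 2.91 in interphase), and 31.2% of their interphase excess. The summits named Esrrb_Book, the counterpart set of Esrrb sites, had -0.32 (1.40 in mitosis, 1.74 in interphase) and 53.5% of the excess. Summits of EP300, a histone acetyltransferase of active enhancers, had -0.43 (2.68 in mitosis, 3.61 in interphase) and 64.2%, whereas transcription start sites were higher in mitosis, with a log2 ratio of 0.29 (5.54 in mitosis, 4.54 in interphase). The Esrrb_Lost summits thus lay nearest to the Oct4/Sox2 summits, both in interphase level and in the share kept in mitosis. No test of these differences between sets could be made from pooled profiles.

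Centred on the Oct4/Sox2 motif, interphase profiles had a fragment peak at the motif and regular peaks beside it. The authors' smoothed profile had 7 maxima within 600 bases in all 6 interphase profiles (both assays, 3 concentrations). The first maximum stood 180 to 200 bases from the motif on 12 of 12 sides and the second at 360 to 380 bases. The mean distance between neighbouring maxima was 180.7 to 185.5 bases in these 6 profiles, the repeat of nucleosome plus linker. In mitotic cells the same spacing was seen at concentration 0.5, with 180.6 bases for MNase and 183.5 for MNase-H3. At concentration 16 neither mitotic profile had a maximum in the first flanking position, and at 128 the MNase profile had its first maxima closer in, about 150 and 160 bases from the motif, with a mean distance of 162.8 bases. The authors' smoothed mitotic MNase-H3 profile at 128 was almost a flat line, with a whole range of 0.0328 of the flank level against 0.187 in interphase cells, although the midpoints it was drawn from were not flat.

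**Figure D2:**
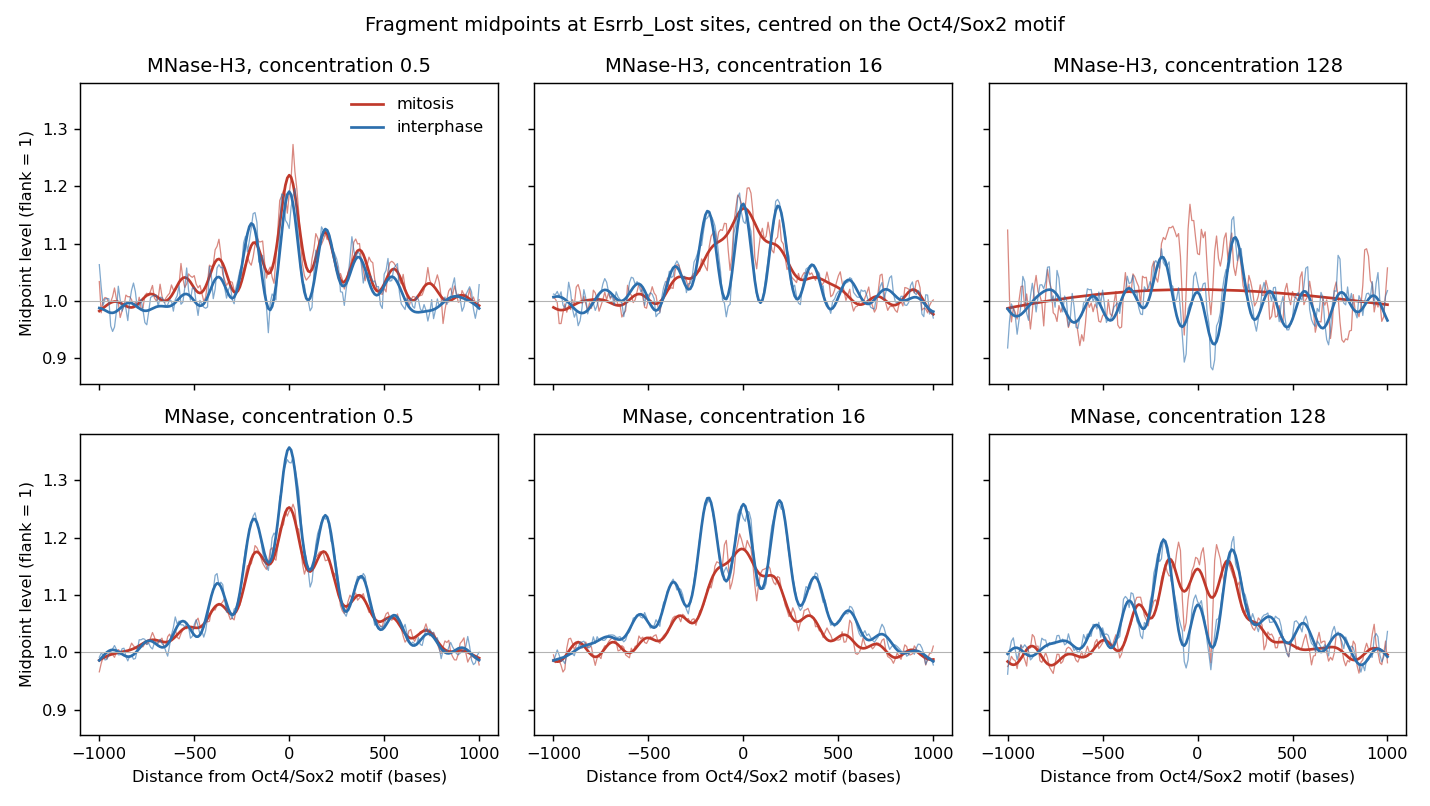
Fragment midpoint level relative to the flank by distance from the Oct4/Sox2 motif in bases, with MNase-H3 above and MNase below at 3 MNase concentrations; thin lines are running means of the midpoints and thick lines the authors' smoothed profile, red for mitotic and blue for interphase cells. Interphase curves hold evenly spaced peaks in all 6 panels, and mitotic curves hold comparable peaks mainly at concentration 0.5.

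At the motif itself the total MNase level was lower in mitosis at concentration 0.5 and higher at 128, and the MNase-H3 level was close in both states at 0.5 and 16 and higher in mitosis at 128. The central MNase level was 1.24, 1.19 and 1.16 in mitotic cells at concentrations 0.5, 16 and 128, against 1.32, 1.23 and 1.07 in interphase cells, with log2 ratios of -0.09, -0.05 and 0.11. The central MNase-H3 level was 1.202, 1.18 and 1.13 in mitotic cells, against 1.17, 1.14 and 1.03 in interphase cells, with log2 ratios of 0.04, 0.04 and 0.13. Of these 6 ratios, those for MNase at 0.5 and for both assays at 128 were clearly larger than 0.0532, the largest gap between the sides found for this ratio in any of the 13 pairs of profiles, and that for MNase at 16 was about equal to it. On the authors' smoothed profile the ratio for MNase-H3 at 128 was 0.0275. The central MNase level thus lay lower at each higher concentration in both states, and the drop between 0.5 and 128 was smaller in mitotic cells. The motif was above its flank in all 12 profiles. At 128 the log2 ratio of central levels was also above 0 in most other sets, given here for MNase and MNase-H3 in turn. It was 0.31 and 0.33 at Oct4/Sox2 motifs, 0.37 and 0.63 at EP300 summits and 0.43 and 0.92 at transcription start sites. At Esrrb motifs it was 0.125 and 0.15 for Esrrb_Lost, and -0.02 and -0.01 for Esrrb_Book.

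The step from the inner trough to the first flanking window is where the states differed in all comparisons. This step, the flanking level minus the trough level, was 0.018, -0.035 and 0.0078 of the flank level for MNase in mitotic cells at 0.5, 16 and 128, against 0.057, 0.131 and 0.140 in interphase cells. The MNase-H3 step was 0.059, -0.015 and 0.032 in mitotic cells, against 0.128, 0.168 and 0.140 in interphase cells. The mitotic step was smaller in 6 of 6 comparisons, on the left and on the right alike, with differences of -0.183 to -0.0395. It was above 0 on both sides in 3 of 6 mitotic and 6 of 6 interphase profiles. The differences at concentration 16, -0.17 for MNase and -0.18 for MNase-H3, lay beyond the largest side-to-side gap of 0.132 seen for such differences, that for MNase at 128 was about equal to it (-0.13), and the other 3 lay within it. Averaged over both sides, the step was also smaller in mitosis in every other set with midpoint profiles. Its direction was thus not particular to these sites. The differences were -0.412 to -0.168 at Oct4/Sox2 motifs, -0.414 to -0.167 at EP300 summits and -0.1345 to -0.0444 at transcription start sites. At Esrrb motifs they were -0.0929 to -0.0291 for Esrrb_Lost and -0.208 to -0.141 for Esrrb_Book.

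Both the trough and the flanking peak took part in that difference. The inner trough was higher in mitosis in 5 of 6 comparisons on both sides, MNase at 0.5 being the exception. For MNase it was 1.15, 1.15 and 1.14 in mitotic cells, against 1.17, 1.13 and 1.04 in interphase cells. In MNase-H3 profiles the trough was 1.04, 1.11 and 1.06 in mitotic cells, against 1.00, 0.994 and 0.947 in interphase cells. The first flanking window was lower in mitosis in 5 of 6 comparisons. For MNase it was 1.17, 1.12 and 1.14 in mitotic cells, against 1.23, 1.26 and 1.18 in interphase cells. In MNase-H3 profiles the window was 1.10, 1.10 and 1.09 in mitotic cells, against 1.13, 1.16 and 1.09 in interphase cells. At concentration 128 the MNase-H3 difference sat almost wholly in the trough, since the flanking windows differed by 0.0064.

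Further out the interphase array was still visible and the mitotic one less so. The second flanking window stood above the second trough on both sides in 2 of 6 mitotic and 5 of 6 interphase profiles, by -0.0354 to 0.0473 in mitosis and 0.0141 to 0.0529 in interphase. The SD of the profile after removal of its slow trend is called ripple here. It covers all positions within 600 bases, the centre included, and also contains counting noise. The ripple was 0.0189 to 0.0375 in mitotic and 0.038 to 0.047 in interphase cells. It was lower in mitosis in 6 of 6 comparisons, with mitotic to interphase ratios of 0.520, 0.452 and 0.874 for MNase at 0.5, 16 and 128, and 0.798, 0.524 and 0.879 for MNase-H3. The ratios nearest to 1 came at concentration 128. There the scatter of single positions around the running mean was 0.128 in mitotic and 0.130 in interphase cells for MNase-H3. For MNase it was 0.0745 and 0.0674, and its part in these ratios was not tested. The SD from 150 bases outward, trend included, was lower in mitosis in 5 of 6 comparisons. The exception was MNase-H3 at 128, with 0.0418 in mitotic and 0.0371 in interphase cells. The left and right sides mirrored each other less in mitosis, with correlations over 56 mirrored positions of 0.38 to 0.78 in mitotic and 0.75 to 0.97 in interphase cells. Positions of a profile come from the same libraries and regions, so these correlations are descriptive. The detrended mitotic and interphase profiles correlated most at concentration 0.5 (0.90 for MNase, 0.82 for MNase-H3) and less at 16 and 128 (0.42 to 0.60).

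Centred on the summit, the same set gave a different mitotic picture. At concentrations 16 and 128 of both assays, and for total MNase at 0.5, a single central mound stood where interphase cells had a narrower central peak between flanking peaks. The authors' smoothed interphase profiles had a first flanking maximum at 190 to 220 bases on 12 of 12 sides, and no mitotic profile had one there on both sides. Mitotic profiles at concentrations 16 and 128 had their next maximum at 300 to 340 bases instead, on 8 of 8 sides, while the 6 interphase profiles had their second maximum at 370 to 390 bases on 10 of 12 sides. At concentration 0.5 the smoothed mitotic profiles of both assays had 1 maximum only. The total MNase midpoints fell from 1.27 at the centre to 1.18 in the inner trough and 1.11 in the first flanking window. The MNase-H3 midpoints showed no central mound, with 1.09 at the centre, 1.05 in the inner trough and 1.08 in the first flanking window.

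**Figure D3:**
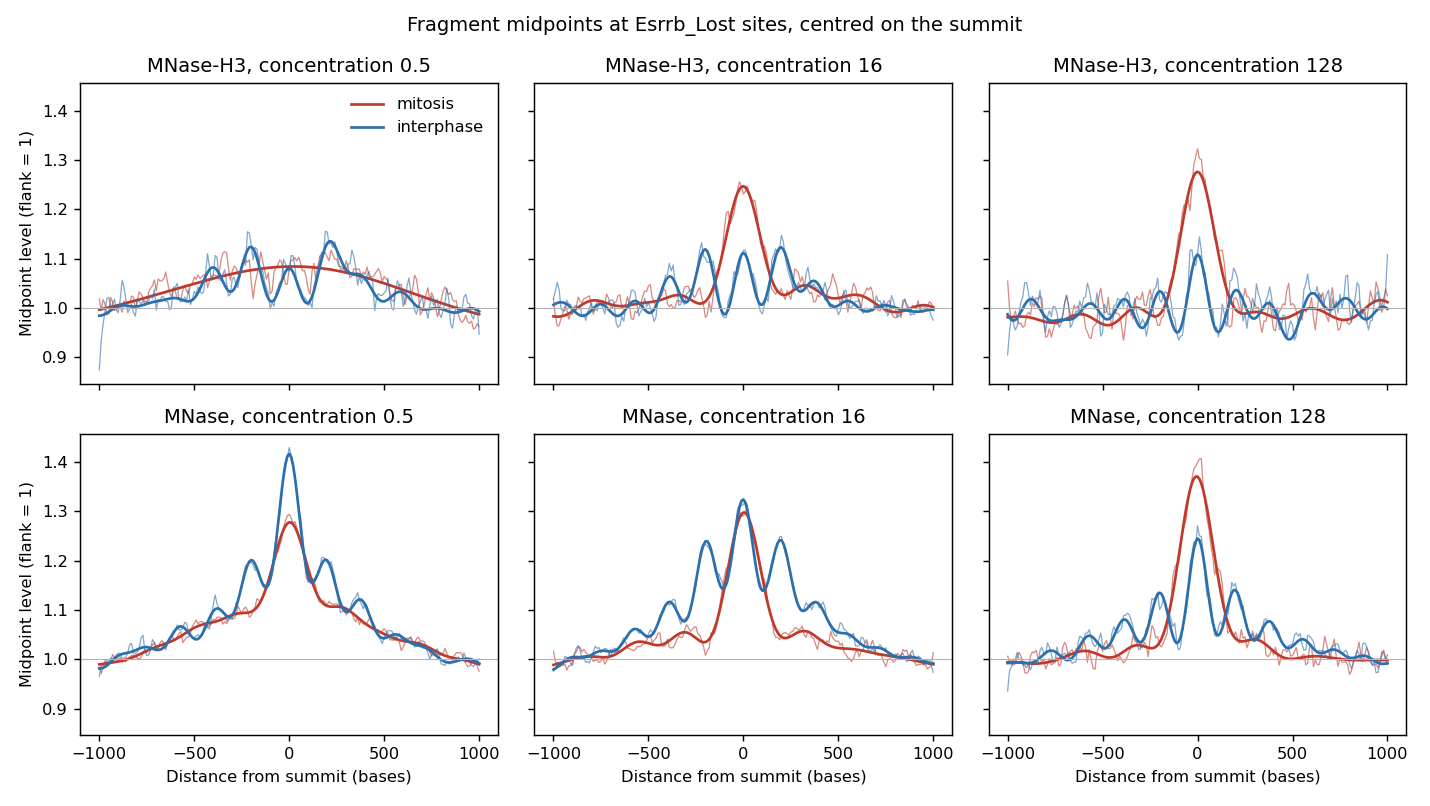
Fragment midpoint level relative to the flank by distance from the summit in bases, with MNase-H3 above and MNase below at 3 MNase concentrations; thin lines are running means and thick lines the authors' smoothed profile, red for mitotic and blue for interphase cells. At concentrations 16 and 128 mitotic cells show a central mound that covers the interphase troughs, and the interphase peaks near 200 bases have no mitotic counterpart. Total MNase at 0.5 also shows a broad mitotic mound, which does not rise above the interphase troughs.

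The central level at the summit was higher in mitosis under heavy digestion and for MNase-H3 at concentration 16. For MNase it was 1.27, 1.28 and 1.37 in mitotic cells at 0.5, 16 and 128, against 1.37, 1.29 and 1.22 in interphase cells, with log2 ratios of -0.11, -0.01 and 0.17. For MNase-H3 it was 1.09, 1.23 and 1.27 in mitotic cells, against 1.07, 1.09 and 1.10 in interphase cells, with log2 ratios of 0.02, 0.18 and 0.21. In mitotic cells the central level was thus highest at concentration 128 in both assays, while the interphase MNase level was lowest there. The peak was also wider in mitosis. Its width midway between top and flank for MNase was about 260, 220 and 170 bases in mitotic cells, against 160, 150 and 90 bases in interphase cells. For MNase-H3 the widths were 100, 190 and 160 bases in mitotic cells, against 70, 90 and 40 bases in interphase cells.

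The window beside that mound carried larger differences than around the motif, in each of the 6 comparisons. The step between inner trough and first flanking window was -0.071, -0.144 and -0.168 for MNase in mitotic cells, against 0.010, 0.083 and 0.081 in interphase cells. The MNase-H3 step was 0.027, -0.148 and -0.1698 in mitotic cells, against 0.106, 0.107 and 0.082 in interphase cells. Again 6 of 6 mitotic steps were the smaller on both sides. The differences were -0.08 at concentration 0.5 in both assays and -0.25 to -0.23 at 16 and 128, and those 4 were all beyond the largest side-to-side gap of 0.132. None of the 6 mitotic profiles had a step above 0 on both sides, against 5 of 6 interphase profiles. As around the motif, the other sets shared the smaller mitotic step, with differences of -0.414 to -0.167 at EP300 summits.

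**Figure D4:**
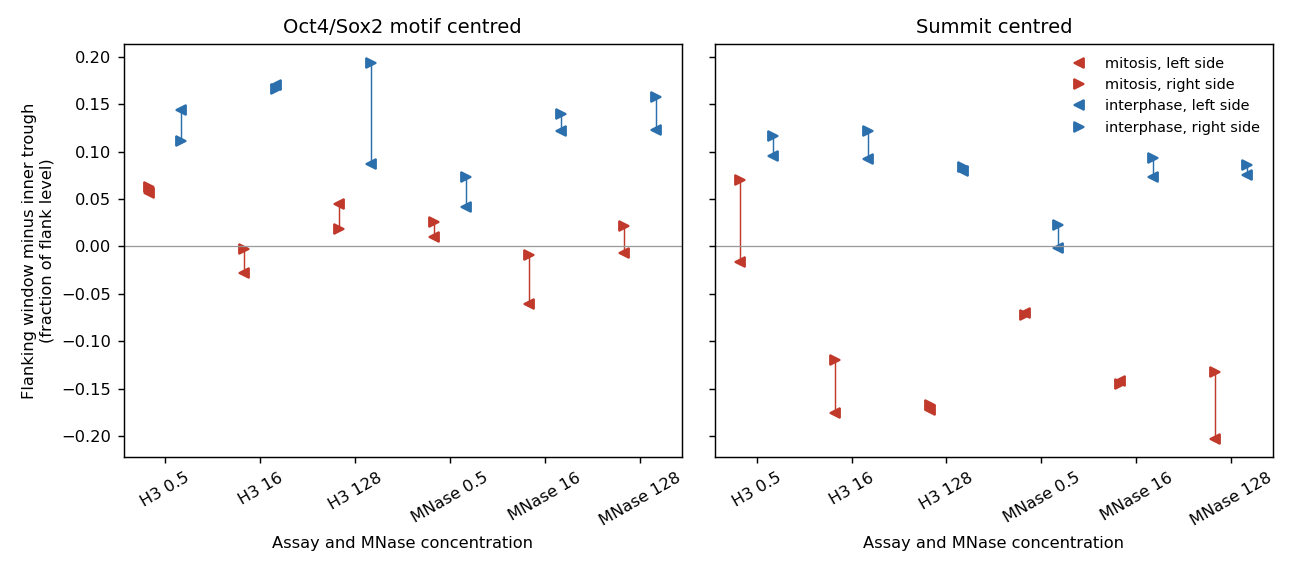
First flanking window minus inner trough, as a fraction of the flank level, for each assay and MNase concentration at motif-centred (left panel) and summit-centred (right panel) sites; triangles are the left and right sides, red for mitotic and blue for interphase cells. Every mitotic value lies below the interphase value of the same side, and the gap is widest for summit-centred profiles at concentrations 16 and 128.

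Between these windows the mitotic and interphase levels crossed over in all comparisons except MNase at 0.5, where the mitotic level was not the higher in either window. In the inner trough window at the summit, MNase was 1.18, 1.18 and 1.21 in mitotic cells, against 1.18, 1.15 and 1.05 in interphase cells. MNase-H3 was 1.05, 1.15 and 1.16 in mitotic cells, against 1.01, 1.00 and 0.963 in interphase cells. The trough was therefore filled in mitosis at the heavier digestions. In the first flanking window MNase was 1.11, 1.04 and 1.04 in mitotic cells, against 1.19, 1.23 and 1.13 in interphase cells. MNase-H3 was 1.08, 1.01 and 0.989 in mitotic cells, against 1.12, 1.11 and 1.05 in interphase cells, so the flanking peak was lower in mitosis in 6 of 6 comparisons on both sides. In 3 of the 4 mitotic profiles at 16 and 128 the second trough window stood above the first flanking window on both sides, which no interphase profile did. The detrended mitotic and interphase profiles correlated at 0.59, -0.04 and 0.33 for MNase and 0.28, -0.26 and -0.09 for MNase-H3, below the motif-centred values throughout.

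Immunoprecipitation of H3 gave lower central levels than total MNase in every pair of profiles. At the motif, MNase-H3 minus MNase was -0.0345 to -0.0098 of the flank level in mitotic cells and -0.147 to -0.0454 in interphase cells. At the summit it was -0.188 to -0.0482 in mitotic cells and -0.299 to -0.119 in interphase cells. The assays were thus closer in mitosis at the same centre, and farthest apart in interphase summits at concentration 0.5 (1.07 for MNase-H3, 1.37 for MNase). In the inner trough the difference was also below 0 in 3 of 3 pairs for each centre and state, at -0.112 to -0.041 in mitotic and -0.173 to -0.0949 in interphase cells around the motif. The labels list formaldehyde as the fixative for the MNase-H3 libraries, and whether fixation was the same for total MNase is not given in the sources used here, so its part in this difference was not tested.

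The choice of centre altered the shape of the profiles. The mean of the whole profile differed between motif-centred and summit-centred profiles of the same libraries by at most 0.137%. Windows of this length around nearby centres share most of their bases, so this closeness says little about the centrings. The distances between motifs and summits are not given. For MNase the central level was lower at the motif than at the summit in all 6 profiles, with differences of -0.212 to -0.0379 of the flank level. MNase-H3 differed in sign. At concentration 0.5 the level at the motif minus that at the summit was 0.116 in mitotic and 0.0967 in interphase cells, at 16 it was -0.0568 in mitotic and 0.0522 in interphase cells, and at 128 it was -0.143 in mitotic and -0.0707 in interphase cells. The first flanking window was higher around the motif in all 12 pairs, and the step from the trough to it was larger. Both centrings come from the same libraries and are not independent observations.

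Against other sets, the Esrrb_Lost motif profiles resembled a weaker form of the Oct4/Sox2 set. Around the motif of the set named Oct4/Sox2, the step was -0.0698 to 0.117 in mitosis and 0.208 to 0.346 in interphase over the 6 pairs of assay and concentration, wider than the -0.0349 to 0.0593 in mitosis and 0.0573 to 0.168 in interphase at Esrrb_Lost motifs. Its ripple was 0.0269 to 0.0429 in mitosis and 0.0681 to 0.0824 in interphase. The interphase central level of MNase-H3 at concentrations 16 and 128 was 1.14 and 1.03 at Esrrb_Lost motifs, and 1.06 and 0.889 at Oct4/Sox2 motifs. The ranges of interphase ripple did not overlap between the sets, but the values are pooled profiles without replicates and carry no test.

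Centred on Esrrb motifs, the ripple was higher in mitosis in both sets of Esrrb sites. This was the opposite of its direction at the Oct4/Sox2 motif and summit centrings. The ripple includes the centre, and no side-to-side limit was set for it. At Esrrb motifs of Esrrb_Lost sites it was 0.0166 to 0.0346 in mitosis and 0.0158 to 0.027 in interphase, higher in mitosis in 6 of 6 comparisons, with mitotic to interphase ratios of 1.05, 1.15 and 1.68 for MNase at 0.5, 16 and 128, and 1.04, 1.27 and 1.28 for MNase-H3. At Esrrb motifs of the set named Esrrb_Book it was 0.0742 to 0.085 in mitosis and 0.0415 to 0.0498 in interphase, above the Esrrb_Lost values in both states. Within the Esrrb_Lost set the direction of the ripple thus differed between centres, and at the Esrrb motif it was the same in both sets. The SD that leaves out the centre, trend included, did not share that reversal throughout. At Esrrb motifs of Esrrb_Lost sites its mitotic minus interphase difference was -0.0117, -0.0255 and -0.0037 for MNase at 0.5, 16 and 128. For MNase-H3 the difference was 0.001, -0.0006 and 0.007. In the Esrrb_Book set this SD was higher in mitosis, by 0.0073 to 0.0175. The step at Esrrb motifs of Esrrb_Lost sites was negative in both states, at -0.150 to -0.0686 in mitosis and -0.0569 to -0.0356 in interphase. It was the lower in mitosis in all comparisons there, the same direction as around the Oct4/Sox2 motif and the summit. The interphase ripple of the Esrrb_Lost set was larger around the Oct4/Sox2 motif (0.038 to 0.047) and the summit (0.0299 to 0.0392) than around the Esrrb motif.

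**Figure D5:**
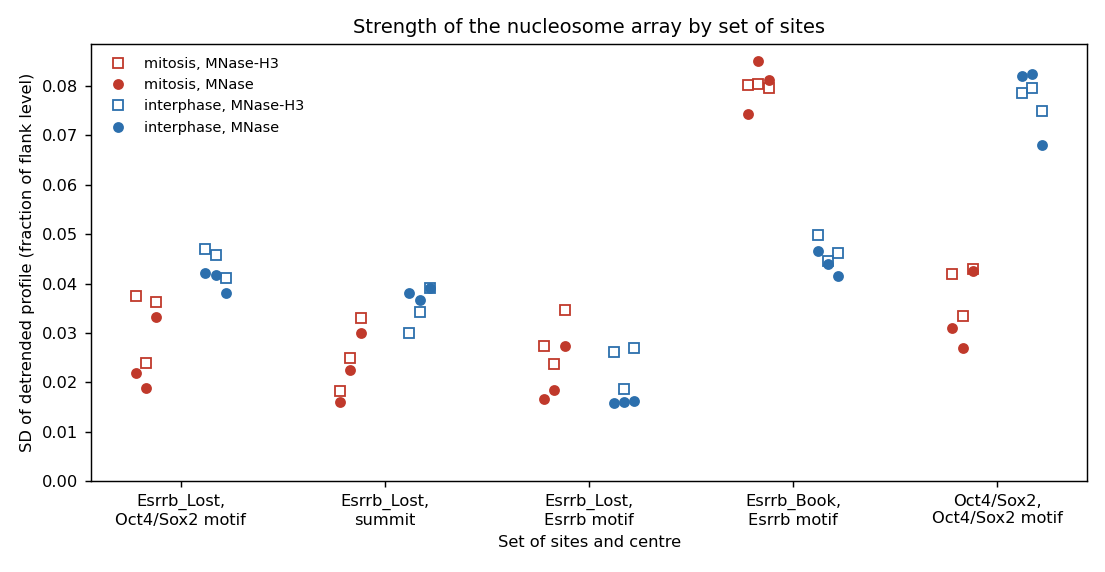
SD of the detrended profile within 600 bases of the centre, as a fraction of the flank level, for 5 combinations of site set and centre. Each point is 1 pooled profile, with the 3 MNase concentrations of an assay from low to high left to right. Red is for mitotic and blue for interphase cells, with open squares for MNase-H3 and filled circles for MNase. Mitotic values are below interphase values for Esrrb_Lost at the Oct4/Sox2 motif and summit and for Oct4/Sox2 sites, and above them for Esrrb_Lost and Esrrb_Book at the Esrrb motif, comparing the same assay and concentration.

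Summits of EP300 differed in the histone signal at the centre. There the central MNase-H3 level in interphase was 0.598, 0.637 and 0.746 at concentrations 0.5, 16 and 128, below the flank, while Esrrb_Lost summits had 1.07, 1.09 and 1.10. In mitosis the EP300 summits had 0.668, 0.976 and 1.16, and the Esrrb_Lost summits 1.09, 1.23 and 1.27. The mitotic level was the higher at all 3 concentrations in both sets, though at 0.5 the 2 states were close at Esrrb_Lost summits.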

How the data were processed

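Mitotic and interphase ES cells were profiled by MNase, MNase-H3 and ATAC. Per the file headers, the authors deposited signal values at each base from -1000 to 1000 around site centres, as fragment midpoints or ATAC cut sites and as a smoothed version of each. Values were pooled by the authors over libraries, and their scale, normalisation, fragment size range and number of regions are not given in the sources used here. The submitters' processing notes name Bowtie2, MACS2, STAR, RSEM and the mm9 assembly without roles. Depth is unknown, so no interval was computed. The RNA tables were not used.

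Profiles were read with Python 3.11.15, numpy 2.4.6, pandas 2.3.3 and scipy 1.17.1. Each was divided by its flank mean. Highest points, widths, ripple and correlations used a running mean over 25 positions. Ripple and correlations used the residual after subtracting a running mean over 200 positions. Counts, positions and distances of maxima came from the authors' smoothed profiles without a further running mean, with a prominence of at least 0.003. Positions are rounded to 10 bases. On simulated profiles only the central level, the mirror correlation and a spacing from the correlation of a profile with itself were tested. The steps, ripple, widths and maxima were not. With 1 pooled profile per condition no test was made, and no sample was left out. Every profile of the chosen entries is described, and other sets were named for a shared centre or name. Members, sets, windows and measures were chosen with earlier results of these data known, and the trough and flanking windows after the profiles had been seen. No region sequences or coordinates were used here.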

Additional observations from a re-analysis of the deposited data

How the results depend on the processing

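The step between inner trough and first flanking window kept its direction in 72 of 72 recomputations (authors' smoothed profile, wider windows, either side). It moved by less than 0.132, the largest difference between the sides, in each. That limit exceeds several of the differences themselves and was set by the side values, so it says little about size. The central level on the deposited scale moved by less than its own largest side difference, 0.0549, in 65 of 65. For the central level relative to the flank, 4 recomputations moved beyond such a limit or reversed. With the authors' smoothed profile, an alternative chosen after seeing the data, the log2 ratio for MNase-H3 at the motif at 128 was 0.0275. With the mean of the whole profile as the flank, ATAC gave -0.51. The ratio for MNase 16 at the summit, near 0, turned positive with a central window of 100 bases (0.0116) and with the whole profile as flank (0.0378). The SD of the profile from 150 bases outward, trend included, held in 78 of 84. Without smoothing, its mitotic minus interphase difference at the motif was -0.0246 for MNase 16, 0.0019 for MNase 128 (reversed) and -0.018 for MNase-H3 0.5, and at the summit -0.0284, -0.0026 and -0.0216 for MNase 16, MNase 128 and MNase-H3 0.5. The cause of these shifts was not tested. The distance between maxima after a running mean over 25 positions moved in 38 of 66 recomputations, which is why distances are given from the authors' smoothed profiles. No paired analysis was possible because the deposited profiles pool the libraries, and for the same reason no library could be left out. Depth is unknown, so what it limits could not be computed.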

Other observations

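The inner trough was uneven around the Oct4/Sox2 motif of Esrrb_Lost sites. In total MNase the left trough was higher than the right in 6 of 6 profiles, by 0.0216 to 0.0367 of the flank level, in mitotic and interphase cells and at all 3 concentrations. The set named Oct4/Sox2 had the same order in 6 of 6 profiles, by 0.0237 to 0.0435. In MNase-H3 the left trough was higher in 2 of 6 profiles of each set, at -0.0209 to 0.0627 for Esrrb_Lost and -0.0246 to 0.0092 for Oct4/Sox2. Centred on the summit, which has no strand, the left trough was higher in 3 of 6 MNase profiles of Esrrb_Lost. Whether motif-centred profiles were oriented by the strand of the motif is not given in the sources used here.

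At the ATAC summit of Esrrb_Lost sites, mirrored positions of the detrended profile correlated at 0.65 in mitotic and 0.95 in interphase cells, over 56 positions. The correlation was lower in mitosis at the other ATAC summits too. It was 0.52 against 0.90 in interphase for Oct4/Sox2, 0.14 against 0.44 for Esrrb_Book and 0.91 against 0.96 for EP300. At Esrrb_Lost summits the ATAC ripple was 0.0343 in mitosis and 0.0795 in interphase. The scatter of single positions was 0.0759 and 0.0717, and its part in the lower correlation was not tested.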
